A study of Mus musculus with 6 samples.

Results

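Chemokines are small secreted proteins that guide the movement of leukocytes, and tumor necrosis factor (*Tnf*) is a cytokine that induces many of them. The 10 genes described here are 9 chemokines made by gut epithelium (*Cxcl1*, *Cxcl2*, *Cxcl5*, *Cxcl10*, *Cxcl16*, *Ccl20*, *Ccl25*, *Ccl28* and *Cx3cl1*) and *Tnf*. They were chosen by gene symbol from the 36172 genes listed, by a rule that uses no measured value but was set with earlier results of these data known, and 7 of the 10 were among the 10042 genes expressed highly enough to be tested. Their RNA was compared between intestinal tumor organoids of 3 *Trp53* genotypes. *Cxcl5* was at 7.14 and 6.80 rpkm in organoids with mutant p53 and at 2.53 rpkm or less in the other libraries. *Cxcl16* was 2.68-fold higher in p53-null than in wild-type organoids and 4.27-fold lower in mutant than in p53-null organoids. *Ccl25* was highest in wild-type organoids and lowest in p53-null organoids. In both p53-null libraries *Cxcl1*, *Cxcl2*, *Cxcl10* and *Ccl20* were above the other 4 libraries, at levels that differed between the replicates by 1.58-fold (*Ccl20*) to 3.68-fold (*Cxcl10*). Of all genes tested, 19.9% were also highest in both p53-null libraries, but this share is not a like comparison. *Cxcl2* and *Ccl20* were too low to be tested, and *Cxcl1* and *Cxcl10* were tested only because a p53-null library was high enough.

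*Cxcl1*, *Cxcl2* and *Cxcl5* bind the receptor *Cxcr2* and attract neutrophils, *Cxcl10* binds *Cxcr3* on activated T cells, and *Ccl20* draws *Ccr6*-bearing lymphocytes and dendritic cells to the gut lining. *Cxcl16* and *Cx3cl1* are made as transmembrane proteins whose outer part can be shed by the proteases *Adam10* and *Adam17*. *Ccl25* and *Ccl28* guide lymphocytes to the small intestine and to mucosal surfaces through *Ccr9* and *Ccr10*. *Tnf* acts through *Tnfrsf1a* and *Tnfrsf1b*, and its signal reaches NF-κB, a transcription factor that binds near the start of many chemokine genes.

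Organoids are cultures of tumor epithelium that grow in 3 dimensions in a gel. They came from small intestinal tumors of C57BL/6 mice aged 15 to 20 weeks that all carried *Apc* truncated at position 716, with loss of heterozygosity. The groups were *Apc*(D716) *Trp53* +/+ (wild-type p53), *Apc*(D716) *Trp53* flox/flox and *Apc*(D716) *Trp53* R270H/R270H, with 2 libraries each from organoids prepared separately from different mice. The flox allele holds the R270H missense mutation behind a stop cassette and is null until *villin-CreER*, which is driven by an epithelial promoter and activated by tamoxifen, removes the cassette. The flox/flox organoids thus lacked p53 and the R270H/R270H organoids expressed only the mutant protein. The paper obtained R270H/R270H mice by giving flox/flox *villin-CreER* mice weekly tamoxifen. These groups therefore differ in tamoxifen and Cre activity as well as in p53, and the effects cannot be told apart. Whether the *Trp53* +/+ mice carried *villin-CreER* or were given tamoxifen is not given in the sources used here.

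The unit is rpkm, read number scaled to gene length and to the mapped reads of the library, so levels can be set beside each other between genes. Gene positions are those of RefSeq on GRCm38.p6. No value is below 1 rpkm, and a gene at this floor may have any level from 0 to 1 rpkm. Of all genes, 23760 were at the floor in every library. *Trp53* was at 75.9 and 74.3 rpkm in the +/+ libraries, 1.73 and 2.48 in the flox/flox libraries and 72.8 and 82.7 in the R270H/R270H libraries. Its level sets flox/flox apart from the other genotypes but cannot tell +/+ from R270H/R270H libraries. Depth was roughly estimated in 5 libraries, from 14 to 23 short genes each, as 44.2 to 47.2 M mapped reads. By this estimate, the floor stands for about 42.1 to 45.0 reads of *Cxcl1* and 165 to 177 reads of *Ccl28*. The flox/flox libraries differed from each other far more than those of the other genotypes. The median s.d. of log2(rpkm+1) between libraries was 0.0463 in +/+, 0.247 in flox/flox and 0.0621 in R270H/R270H organoids. Differences between genotypes were tested with limma on log2(rpkm+1), with a shared spread for all genotypes, and a gene was called at a Benjamini-Hochberg adjusted p under 0.05 over the genes tested. With 2 libraries a genotype, an exact permutation test of a single gene cannot go below p=0.333, and the p-values of limma draw on the pooled spread of all genes between cultures of 2 mice. A lower value in these cultures can mean fewer cells of a type or less RNA per cell, which cannot be told apart.

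Of the 5 chemokines that were highest in both flox/flox libraries, *Cxcl1*, *Cxcl2*, *Cxcl10* and *Ccl20* have a promoter window in the RefSeq table used. Their sequences are shown because each holds matches to an NF-κB type motif, GGG followed by 5 bases of any kind and CC. Each is the 200 bases before the start site, in GRCm38.p6, read 5′ to 3′ on the strand of the gene, with matches on either strand in capitals. The windows are chr5:90891045-90891244 (plus strand) for *Cxcl1*, chr5:90903699-90903898 (plus) for *Cxcl2*, chr5:92348890-92349089 (minus) for *Cxcl10* and chr1:83116566-83116765 (plus) for *Ccl20*.
*Cxcl1*: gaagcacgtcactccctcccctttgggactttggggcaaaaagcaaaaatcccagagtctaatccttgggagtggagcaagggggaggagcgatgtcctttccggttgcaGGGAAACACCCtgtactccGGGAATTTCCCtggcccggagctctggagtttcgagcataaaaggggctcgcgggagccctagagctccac
*Cxcl2*: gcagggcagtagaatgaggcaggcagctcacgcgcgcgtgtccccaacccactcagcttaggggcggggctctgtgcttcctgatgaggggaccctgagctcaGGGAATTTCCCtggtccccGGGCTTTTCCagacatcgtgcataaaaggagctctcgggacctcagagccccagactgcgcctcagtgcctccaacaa
*Cxcl10*: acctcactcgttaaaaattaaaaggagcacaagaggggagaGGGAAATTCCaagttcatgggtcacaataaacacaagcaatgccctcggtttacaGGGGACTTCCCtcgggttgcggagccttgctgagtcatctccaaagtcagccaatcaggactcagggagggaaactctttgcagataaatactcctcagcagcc
*Ccl20*: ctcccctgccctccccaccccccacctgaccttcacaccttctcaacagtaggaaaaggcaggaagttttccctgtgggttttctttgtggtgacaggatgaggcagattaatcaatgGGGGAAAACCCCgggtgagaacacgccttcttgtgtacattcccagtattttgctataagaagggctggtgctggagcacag
*Cxcl1* and *Cxcl2* share the run GGGAATTTCCC, which begins 71 bases before the start site in *Cxcl1* and 97 bases before it in *Cxcl2*. Within 250 bases before the start, 6 of the 8 members with a window (*Cxcl1*, *Cxcl2*, *Cxcl10*, *Ccl20*, *Ccl28* and *Tnf*) matched this motif, which occurred in 45.8% of 32851 windows of all genes. The narrower forms GGG, 2 bases of any kind, TTTCC and GGG, 2 bases of any kind, TTCCC, which are contained in it and were added after the sequences had been seen, occurred in 1.41% and 1.53% of all windows. *Cxcl1*, *Cxcl2* and *Ccl20* held the first, and *Cxcl10* and *Ccl20* the second. The interferon response type motif of GAAA, 2 bases of any kind and GAAA occurred in *Cxcl10* alone among the members, 213 bases before the start and outside the sequence shown, and in 2.98% of all windows, and that of GGAA, 2 bases of any kind and GAAA in none of the members and in 2.30% of all windows. *Cxcl5* and *Cxcl16* have no window in the table used.

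The summed chemokine RNA of a library was highest in p53-null organoids. The paper also measured secreted protein, and reports higher levels of most cytokines and chemokines in the medium of R270H/R270H organoids. Its text does not name these proteins, and RNA and secreted protein are different measures. The rpkm values above the floor of the 9 chemokines added up to 37.3 and 39.0 in the +/+ libraries, 70.4 and 50.3 in the flox/flox libraries and 40.9 and 39.2 in the R270H/R270H libraries. In +/+ organoids, nearly all of this came from *Cx3cl1*, *Ccl25* and *Cxcl16*. *Ccl25*, at 12.3 and 14.2 rpkm, overlapped *Cx3cl1* at 13.8 and 13.9 rpkm, and both were above *Cxcl16* at 10.2 and 10.9 rpkm. In flox/flox organoids, *Cxcl16* alone made up 44.9% and 49.5% of the sum, and the 4 genes below it in order of the mean, *Cx3cl1*, *Cxcl10*, *Tnf* and *Cxcl1*, had overlapping values over the 2 libraries. In R270H/R270H organoids, *Cx3cl1* led with 39.4% and 39.1%, and *Cxcl5*, at the floor in +/+ organoids, made up 17.4% and 17.3%. There, *Cxcl5*, *Ccl25* and *Cxcl16* overlapped at 6.23 to 7.14 rpkm, and *Tnf* overlapped *Cxcl16*. The number of chemokines above the floor was 4 and 3 in +/+, 7 and 8 in flox/flox and 7 and 6 in R270H/R270H libraries. Some of these lay near the floor, as *Ccl20* at 1.06 rpkm in +/+ and R270H/R270H replicate 1. *Cxcl10* was at 1.47 and 1.03 rpkm in R270H/R270H libraries, and *Cxcl2* at 1.27 rpkm in flox/flox replicate 2. Of all genes, 68.5% and 68.6% were at the floor in +/+, 70.4% and 68.8% in flox/flox and 68.0% and 67.9% in R270H/R270H libraries.

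**Figure D1:**
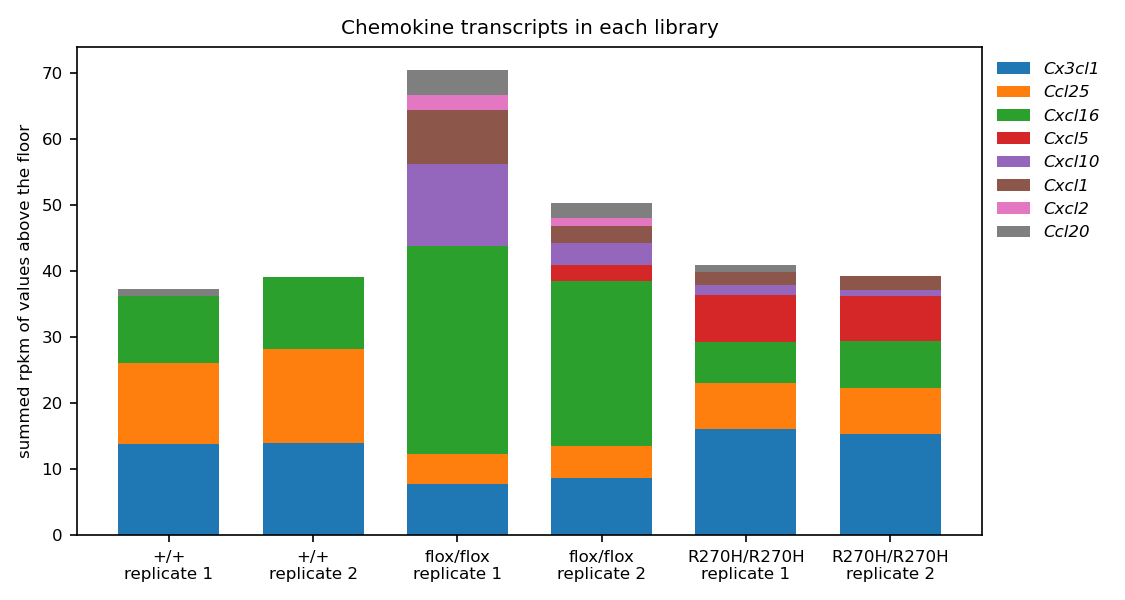
Summed rpkm of the chemokines above the floor (y axis) in each of the 6 libraries (x axis), with the part of each chemokine in its own color. The flox/flox libraries stand at 70.4 and 50.3 rpkm and the other 4 libraries between 37.3 and 40.9, and *Cxcl5* (red) makes up a broad band in both R270H/R270H libraries.

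Of the neutrophil-attracting chemokines, *Cxcl5* (chromosome 5, 90759298 to 90761625) was at the floor in both +/+ libraries. The flox/flox libraries were at the floor (replicate 1) and at 2.53 rpkm (replicate 2), and the R270H/R270H libraries at 7.14 and 6.80 rpkm. Both R270H/R270H libraries were above the other 4, as they were in 26.5% of all genes tested. Against +/+ organoids, which were at the floor, *Cxcl5* was at least 6.97-fold higher in R270H/R270H organoids, a log2 difference of 1.99 (s.e. 0.29, adjusted p=0.0176 by limma). Against flox/flox organoids the difference was 1.59 (s.e. 0.29, adjusted p=0.0211). *Cxcl5* was among the genes that the study picked from these libraries for their rise in mutant organoids, and it passed the filter on low values only through the R270H/R270H libraries, so neither test is independent evidence of its direction. By real-time RT-PCR, the paper also reports more *Cxcl5* in R270H/R270H than in +/+ and flox/flox organoids. It reports the same for invasive against non-invasive areas of *Trp53* +/R270H tumors. With either +/+ or either R270H/R270H library left out, the adjusted p against +/+ was between 0.145 and 0.181. Against flox/flox, *Cxcl5* was not called with any of these 4 left out. This difference was 1.18 without flox/flox replicate 1 and 1.99 without replicate 2. Between flox/flox and +/+ organoids the log2 difference of 0.41 was not called (adjusted p=0.342 by limma). It was 0.82 without flox/flox replicate 1 and 0 without replicate 2. A lone flox/flox library has no spread of its own, so no p-value is given for it.

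*Cxcl1* and *Cxcl2*, which lie next to each other on chromosome 5 (90891245 to 90893121 and 90903899 to 90905938), were highest in flox/flox organoids. *Cxcl1* was at the floor in both +/+ libraries, at 8.27 and 2.47 rpkm in the flox/flox libraries and at 2.07 and 2.04 rpkm in the R270H/R270H libraries. The 3 genotypes did not overlap, and flox/flox replicate 1 stood 3.35-fold above flox/flox replicate 2. On the scale of means, *Cxcl1* was at least 5.37-fold higher in flox/flox and at least 2.06-fold higher in R270H/R270H than in +/+ organoids. Neither was called, with log2 differences of 1.50 (s.e. 0.46, adjusted p=0.0917) and 0.61 (adjusted p=0.416). Without flox/flox replicate 2 the log2 difference of flox/flox from +/+ was 2.21, and it rests on 1 flox/flox library. Without flox/flox replicate 1 no library reached the filter. *Cxcl2* was at the floor in all +/+ and R270H/R270H libraries and at 2.32 and 1.27 rpkm in the flox/flox libraries, at least 1.79-fold higher. It did not reach 4 rpkm and was not tested. Of its 36-base stretches, 4.03% also occur in *Cxcl3*, which was listed at the floor in every library.

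**Figure D2:**
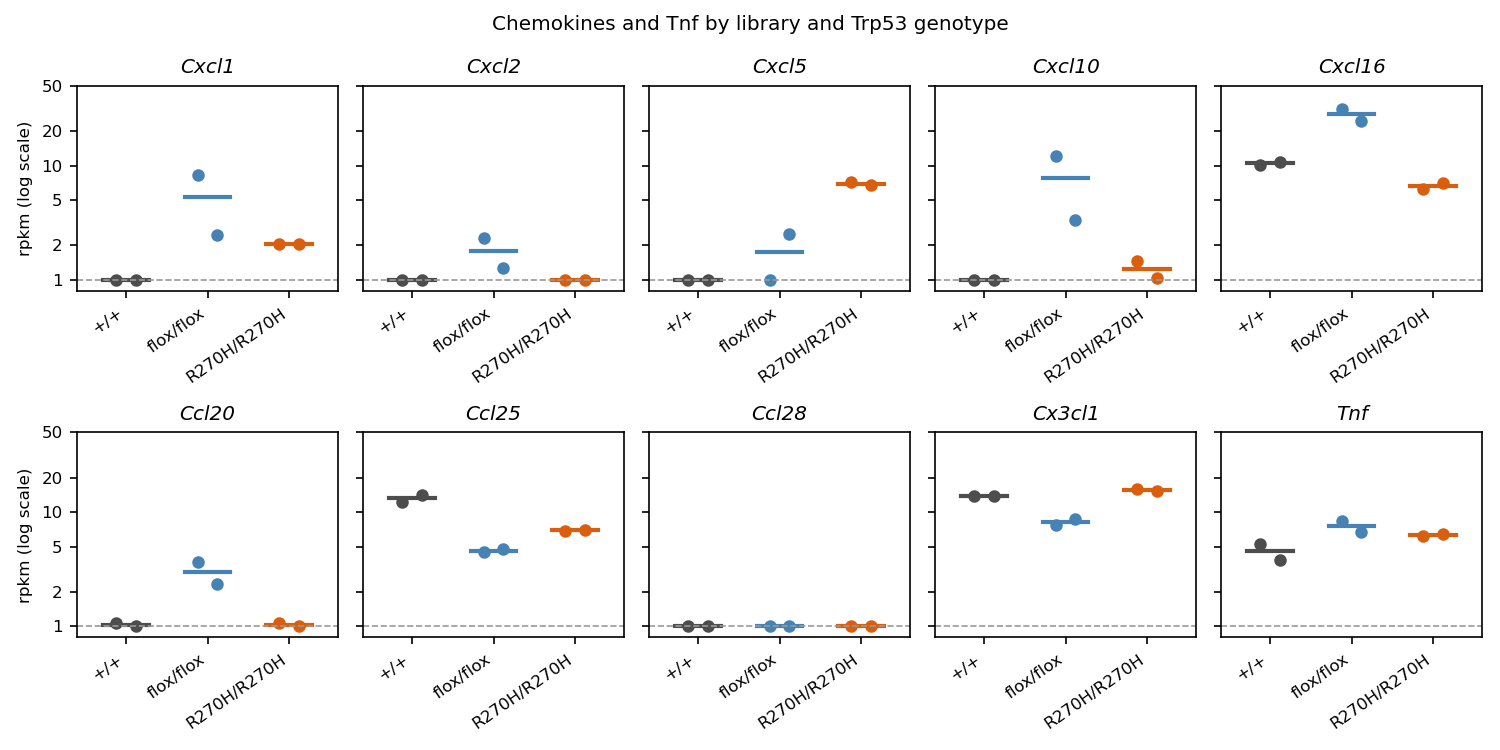
Level of each gene in rpkm on a log axis (y) in the 2 libraries of each *Trp53* genotype (x), with points for libraries, short lines for genotype means and a dashed line at the floor of 1 rpkm. *Cxcl5* reaches 7.14 and 6.80 rpkm only in R270H/R270H organoids, whereas *Cxcl1*, *Cxcl2*, *Cxcl10*, *Cxcl16*, *Ccl20* and *Tnf* have both flox/flox points above all others.

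*Cxcl10* (chromosome 5, 92346638 to 92348889), a chemokine induced by interferons, had the widest range within a genotype. It was at the floor in both +/+ libraries, at 12.3 and 3.34 rpkm in the flox/flox libraries and at 1.47 and 1.03 rpkm in the R270H/R270H libraries. Both flox/flox libraries were above the other 4, but replicate 1 lay 3.68-fold above replicate 2. The mean was at least 7.81-fold higher in flox/flox than in +/+ organoids, and the log2 differences of 1.92 from +/+ (s.e. 0.52, adjusted p=0.0746) and -1.76 between R270H/R270H and flox/flox (adjusted p=0.0638) were not called. R270H/R270H and +/+ organoids differed by 0.16 (adjusted p=0.866). Without flox/flox replicate 2, the log2 differences were 2.73 for flox/flox against +/+ and -2.57 for R270H/R270H against flox/flox. Both rest on 1 flox/flox library, and without replicate 1 the gene did not reach the filter. Like *Cxcl1*, it passed this filter only through flox/flox replicate 1. Its transcript shares 6.46% of its 36-base stretches with *Art3*, which overlaps it and was listed at the floor in every library.

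*Ccl20* (chromosome 1, 83116766 to 83119167) stood at 1.06 and 1 rpkm in the +/+ libraries, 3.68 and 2.34 rpkm in the flox/flox libraries and 1.06 and 1 rpkm in the R270H/R270H libraries. The +/+ and R270H/R270H libraries lay at the same level and both flox/flox libraries above it. Its values were under 4 rpkm, so it was outside the main test. When all genes above the floor in any library were fitted, the log2 differences were 0.96 between flox/flox and +/+ (s.e. 0.17, adjusted p=0.0339) and -0.96 between R270H/R270H and flox/flox (adjusted p=0.0212). In that fit *Cxcl2* differed by 0.46 between flox/flox and +/+ organoids and was not called (adjusted p=0.161).

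Of the transmembrane chemokines, *Cxcl16* (chromosome 11, 70454389 to 70459984), the ligand of *Cxcr6*, was the most abundant chemokine in p53-null organoids. It was at 10.2 and 10.9 rpkm in the +/+ libraries, 31.6 and 24.9 rpkm in the flox/flox libraries and 6.23 and 7.02 rpkm in the R270H/R270H libraries. No pair of genotypes overlapped, with flox/flox the highest and R270H/R270H the lowest. *Cxcl16* rose 2.68-fold from +/+ to flox/flox organoids, a log2 difference of 1.33 (s.e. 0.15, adjusted p=0.0134), and was 4.27-fold lower in R270H/R270H than in flox/flox organoids, a difference of -1.93 (s.e. 0.15, adjusted p=0.00312). The difference of -0.60 between R270H/R270H and +/+ organoids was not called (adjusted p=0.0608), although it had adjusted p=0.0031 without flox/flox replicate 1 and 0.00296 without replicate 2. The call of flox/flox against +/+ was lost without any 1 of the +/+ and R270H/R270H libraries (adjusted p=0.0873 to 0.177), and that of R270H/R270H against flox/flox was lost only without R270H/R270H replicate 1 (adjusted p=0.0588). With only the 2 genotypes compared in the fit, flox/flox against +/+ was not called (adjusted p=0.0866 by limma), and R270H/R270H against flox/flox was (adjusted p=0.0274). With a weight for each genotype both were called (adjusted p=0.0466 and 0.00833). Of the 36-base stretches of *Cxcl16*, 21.2% occur in the overlapping gene *Zmynd15*, which was listed at the floor in every library.

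*Cx3cl1* (chromosome 8, 94772180 to 94782427), the ligand of *Cx3cr1*, ran the other way. It was at 13.8 and 13.9 rpkm in the +/+ libraries, 7.79 and 8.71 rpkm in the flox/flox libraries and 16.1 and 15.3 rpkm in the R270H/R270H libraries. Both flox/flox libraries were the lowest of the 6 and both R270H/R270H libraries the highest. *Cx3cl1* was lower in flox/flox than in +/+ organoids, with a log2 difference of -0.68 (s.e. 0.11, adjusted p=0.0264), and higher in R270H/R270H than in flox/flox organoids by 0.85 (s.e. 0.11, adjusted p=0.00934). The 0.17 between R270H/R270H and +/+ organoids was not called (adjusted p=0.323). With a weight for each genotype, flox/flox was not called against +/+ or R270H/R270H (adjusted p=0.115 and 0.0506 by limma). With only the 2 genotypes compared in the fit, it was not called either (adjusted p=0.116 and 0.0623). Both calls were lost without any 1 of the +/+ and R270H/R270H libraries, with adjusted p of 0.113 to 0.272 for the first and 0.0591 to 0.127 for the second.

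Of the chemokines that guide lymphocytes to the gut lining, *Ccl25* (chromosome 8, 4325205 to 4360020), typical of the small intestine, was highest with wild-type p53. It was at 12.3 and 14.2 rpkm in the +/+ libraries, 4.44 and 4.79 rpkm in the flox/flox libraries and 6.86 and 7.00 rpkm in the R270H/R270H libraries. The 3 genotypes did not overlap. The +/+ mean was 2.88-fold that of flox/flox organoids and 1.92-fold that of R270H/R270H organoids, with log2 differences of -1.34 (s.e. 0.12, adjusted p=0.00935) and -0.85 (s.e. 0.12, adjusted p=0.0176). R270H/R270H organoids were above flox/flox organoids by 0.50 (adjusted p=0.0397). All 3 calls were lost without any 1 of the +/+ and R270H/R270H libraries. Without flox/flox replicate 1 or 2, flox/flox differed from +/+ by -1.30 or -1.39. R270H/R270H then differed from flox/flox by 0.45 or 0.54. With a weight for each genotype or only the 2 genotypes compared in the fit, *Ccl25* was not called in either comparison with flox/flox. The adjusted p values of limma were 0.0629 and 0.077 for flox/flox against +/+, and 0.282 and 0.121 for R270H/R270H against flox/flox. *Ccl28* (chromosome 13, 119623819 to 119654359), which is typical of the large intestine and other mucosal surfaces, was listed at the floor in all 6 libraries.

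*Tnf* (chromosome 17, 35199367 to 35202007) was at 5.26 and 3.84 rpkm in the +/+ libraries, 8.42 and 6.67 rpkm in the flox/flox libraries and 6.25 and 6.42 rpkm in the R270H/R270H libraries. Both +/+ libraries were below the other 4, and the flox/flox libraries were above the R270H/R270H libraries by a narrow margin. The log2 differences from +/+ organoids were 0.63 in flox/flox (s.e. 0.18, adjusted p=0.0832) and 0.41 in R270H/R270H organoids (s.e. 0.18, adjusted p=0.191), and neither was called. The difference of -0.21 between R270H/R270H and flox/flox organoids was not called either (adjusted p=0.398). Without flox/flox replicate 2, the difference of flox/flox from +/+ was 0.77, and without replicate 1 it was 0.48. Each rests on 1 flox/flox library.

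Between R270H/R270H and +/+ organoids, limma thus called 2 of the 7 members tested, *Cxcl5* higher and *Ccl25* lower, where 12.2% of all genes tested were called (5.86% higher and 6.36% lower). Between flox/flox and +/+ organoids it called 3 of 7, *Cxcl16* higher and *Ccl25* and *Cx3cl1* lower, against 11.3% of all genes (4.38% higher and 6.90% lower). Between R270H/R270H and flox/flox organoids it called 4 of 7, with *Cxcl5*, *Ccl25* and *Cx3cl1* higher and *Cxcl16* lower, against 24.6% of all genes (13.6% higher and 11.0% lower). These comparisons share libraries, so they are not independent of each other. *Cxcl5*, counted in the first and the third, was picked from these libraries and passed the filter only through R270H/R270H. Its calls are not given as support, and these counts cannot be weighed against the shares of all genes. The libraries of the 2 genotypes did not overlap in 7, 6 and 7 of the 7 members in these comparisons, but this was also so for 81.8%, 64.5% and 68.0% of all genes tested. Both flox/flox libraries were above the other 4 in 6 of the 10 members and in 4 of the 7 tested. Among all genes tested this share was 19.9%, which does not cover *Cxcl2* and *Ccl20*, as they were not tested. Of the 4 tested, 2, *Cxcl1* and *Cxcl10*, had passed the filter only through that genotype. The median log2 difference of the 7 members was 0.17, 0.63 and -0.21 in the 3 comparisons, beside 0.03, -0.02 and 0.03 for all genes tested. These medians include *Cxcl1*, *Cxcl10* and *Cxcl5*, which passed the filter only through the genotype where they were highest, so they do not measure a shift of the set. Of the rest, *Cxcl16* and *Tnf* were higher and *Ccl25* and *Cx3cl1* lower in flox/flox than in +/+ organoids.

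**Figure D3:**
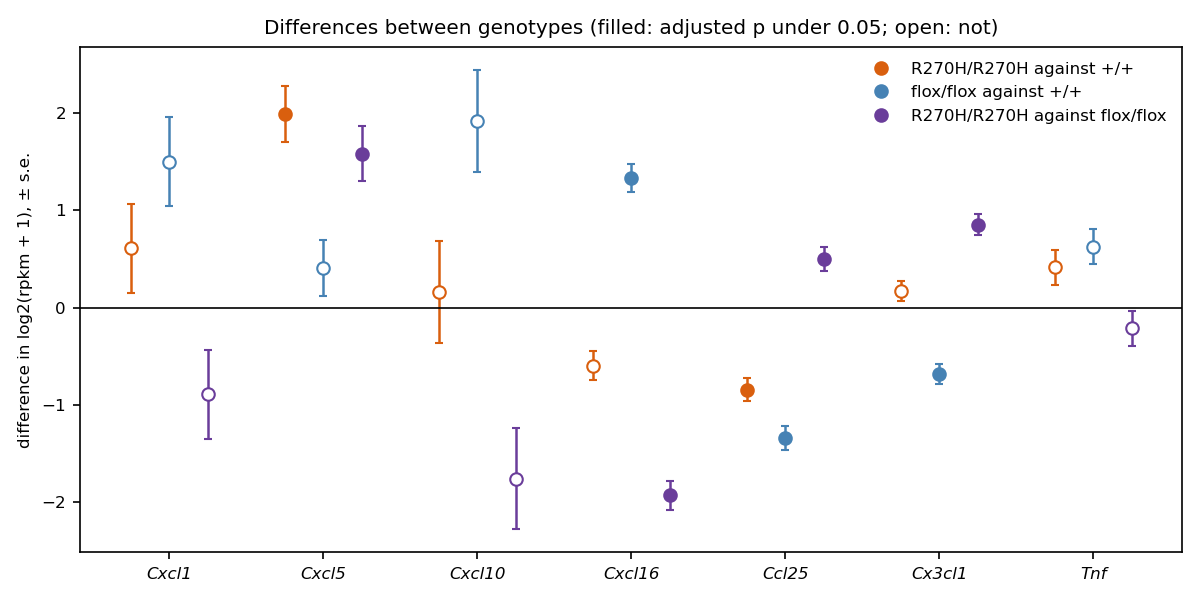
Difference in log2(rpkm+1) between genotypes (y axis), with s.e. bars from limma, for the 7 members tested (x axis), with filled points for an adjusted p under 0.05 and open points for the rest. The bars of *Cxcl1* and *Cxcl10* are the longest, and *Cxcl16* differs by 1.33 between flox/flox and +/+ and by -1.93 between R270H/R270H and flox/flox organoids.

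Leukocytes carry most receptors of these ligands. Of 14 receptors, 10 were at the floor in every library, among them *Cxcr3*, *Cxcr6*, *Ccr6*, *Ccr9*, *Ccr10* and *Cx3cr1*. *Cxcr2* was at 1.40 and 1.58 rpkm in the +/+ libraries, at the floor in the flox/flox libraries and at 2.58 and 2.26 rpkm in the R270H/R270H libraries, too low to be tested. *Tnfrsf1a*, the widely expressed *Tnf* receptor, was at 28.9 and 29.2 rpkm in +/+, 25.2 and 22.5 in flox/flox and 15.7 and 16.9 in R270H/R270H libraries. It fell by 0.80 on the log2 scale from +/+ to R270H/R270H organoids (adjusted p=0.015) and lay lower in R270H/R270H than in flox/flox organoids with a log2 difference of -0.52 (adjusted p=0.0274). *Tnfrsf1b*, the second *Tnf* receptor, was at 3.48 and 3.51 rpkm in +/+, 4.72 and 5.13 in flox/flox and 5.49 and 5.57 in R270H/R270H libraries. It was higher in R270H/R270H than in +/+ organoids by 0.54 (adjusted p=0.0458). The differences of 0.40 between flox/flox and +/+ (adjusted p=0.0853) and 0.14 between R270H/R270H and flox/flox (adjusted p=0.387) were not called. It was under 4 rpkm in +/+ libraries, so its call followed in part from the filter. The scavenging chemokine receptor *Ackr3*, listed as *Cxcr7* and counted in the 14, was at 4.12 and 4.19 rpkm in +/+ libraries, at 1 and 1.56 in flox/flox libraries and at the floor in R270H/R270H libraries. Whether it binds any of the members was not examined here. *Ackr3* reached 4 rpkm only in +/+ organoids, so its 2 calls against +/+ followed in part from the filter and are not given as support.

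Among related ligands, no further chemokine was expressed highly enough to be tested, and 23 of 29 were at the floor in every library, including *Cxcl3*, *Cxcl9*, *Cxcl11* and *Cxcl12*. Of 15 other ligands of the *Tnf* family, 11 were at the floor throughout. *Tnfsf9*, a costimulatory ligand, was at 8.89 and 8.91 rpkm in +/+, 13.6 and 14.5 in flox/flox and 9.86 and 10.1 in R270H/R270H libraries, higher in flox/flox than in +/+ organoids by 0.60 (adjusted p=0.0282). *Tnfsf10*, which can trigger cell death, was at 4.33 and 3.22 rpkm in +/+ libraries and between 1 and 1.11 rpkm in the other 4. It passed the filter only through +/+ replicate 1, so its calls against +/+ are not given as support either.

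Of the 5 proteases and cofactors of shedding that were tested, *Adam17* among them, 0 were called against +/+ organoids by limma, and 2 (R270H/R270H) and 1 (flox/flox) had an unadjusted p under 0.05. Between R270H/R270H and flox/flox organoids, *Adam10*, which cleaves *Cxcl16* and *Cx3cl1*, was higher by 0.79 (adjusted p=0.0347), with 111 and 99.5 rpkm against 51.0 and 71.6 rpkm, and *Frmd8*, a partner of the iRhom proteins that bring *Adam17* to the cell surface, was lower with a log2 difference of -0.82 (adjusted p=0.0156). Of 21 genes that relay the signal from the *Tnf* receptor to NF-κB, all tested, 1 was called higher and 1 lower in R270H/R270H than in +/+ organoids, 1 higher and 3 lower in flox/flox than in +/+, and 5 higher and 3 lower in R270H/R270H than in flox/flox, where 12.2%, 11.3% and 24.6% of all genes tested were called. The adaptor *Tradd* was at 4.73 and 4.25 rpkm in +/+, 9.89 and 8.23 in flox/flox and 2.89 and 3.48 in R270H/R270H libraries, higher in flox/flox than in +/+ by 0.87 (adjusted p=0.0314) and lower in R270H/R270H than in flox/flox with a log2 difference of -1.26 (adjusted p=0.0088). *Rbck1*, a subunit of the linear ubiquitin ligase, was lower in R270H/R270H than in +/+ organoids with a log2 difference of -1.06 (adjusted p=0.0151). *Traf5*, an adaptor, was lower in flox/flox than in +/+ organoids with a log2 difference of -0.91 (adjusted p=0.0376) and higher in R270H/R270H than in flox/flox organoids by 1.10 (adjusted p=0.0168). The median of the list was 0.03, -0.05 and 0.14 in the 3 comparisons, beside 0.03, -0.02 and 0.03 for all genes tested.

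Many chemokine mRNAs and that of *Tnf* carry AU-rich elements, which bind factors that stabilize or destroy them. Of 11 such factors tested, 2 were called higher and 1 lower in R270H/R270H than in +/+ organoids, 1 higher in flox/flox than in +/+, and 1 higher and 1 lower in R270H/R270H than in flox/flox, beside the same 12.2%, 11.3% and 24.6% of all genes. *Tia1*, which holds back translation of *Tnf* mRNA, was at 12.3 and 10.6 rpkm in +/+, 8.42 and 9.86 in flox/flox and 19.2 and 19.4 in R270H/R270H libraries, and rose by 0.71 over +/+ (adjusted p=0.0301) and by 1.01 over flox/flox organoids (adjusted p=0.01). *Zfp36l1*, a decay factor, was lower in R270H/R270H than in +/+ organoids with a log2 difference of -0.48 (adjusted p=0.0431). Of 10 genes through which interferons induce *Cxcl10*, 0 were called higher and 1 lower in R270H/R270H than in +/+ organoids. In flox/flox against +/+, 1 was called higher and 1 lower, and in R270H/R270H against flox/flox 4 higher and 2 lower. These counts stand again beside 12.2%, 11.3% and 24.6% of all genes. *Irf1*, an activator of *Cxcl10*, was at 11.2 and 9.27 rpkm in +/+, 16.7 and 17.0 in flox/flox and 8.05 and 8.67 in R270H/R270H libraries, and was higher in flox/flox than in +/+ by 0.68 (adjusted p=0.0344) and lower in R270H/R270H than in flox/flox with a log2 difference of -0.93 (adjusted p=0.0111). *Irf7* and *Irf9*, which act downstream of type I interferon, were higher in R270H/R270H than in flox/flox organoids by 1.07 (adjusted p=0.0195) and 1.59 (adjusted p=0.0231), where *Cxcl10* was at 1.47 and 1.03 rpkm. *Irf9* had passed the filter only through R270H/R270H organoids.

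**Figure D4:**
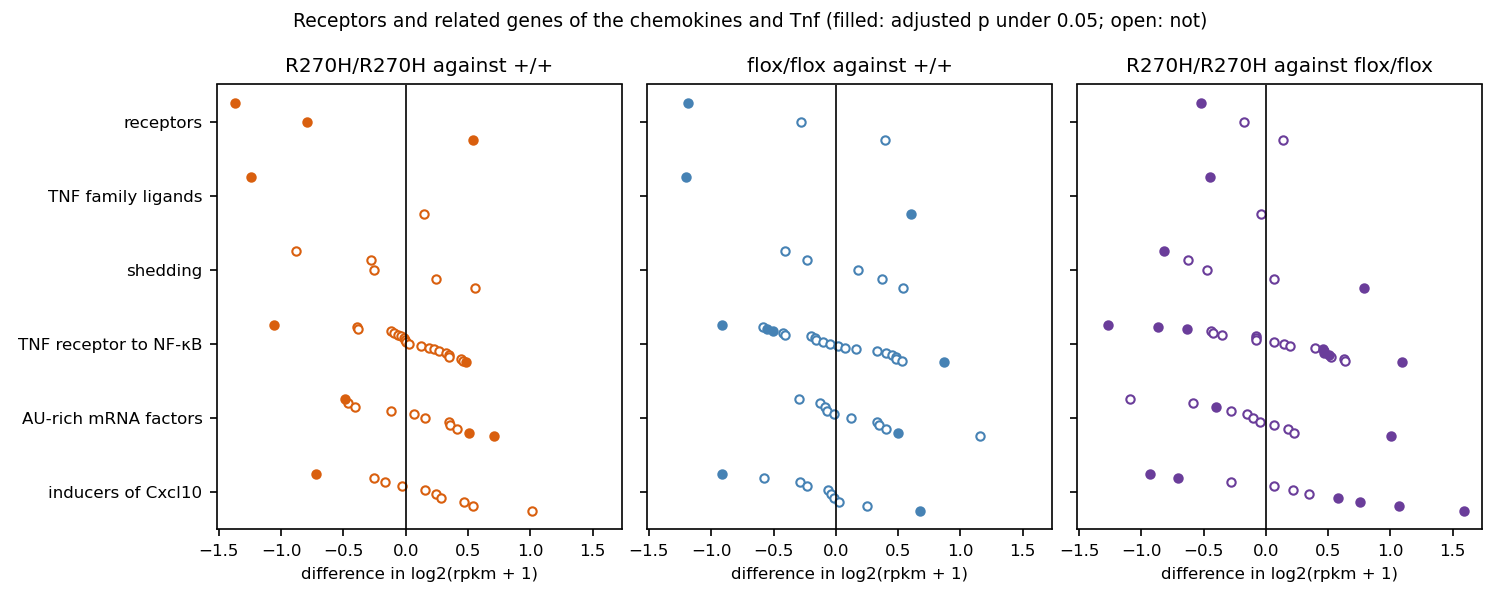
Difference in log2(rpkm+1) (x axis) of each tested gene of 6 lists (rows) in the 3 comparisons of genotypes (panels), with filled points for an adjusted p under 0.05 and open points for the rest. The relay from the *Tnf* receptor to NF-κB spreads to both sides of 0 in each panel, and the filled points are most numerous between R270H/R270H and flox/flox organoids.

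Cells other than epithelium can also make these ligands. All 8 epithelial markers were expressed in every library, and their summed level was 2920 and 2864 rpkm in +/+, 4557 and 4228 in flox/flox and 2327 and 2506 in R270H/R270H libraries. This sum and *Cxcl16* had the same order of genotypes, and its part in the values of *Cxcl16* was not tested. Of 10 leukocyte markers, 8 were at the floor in all 6 libraries, among them *Ptprc*, the common leukocyte antigen. The rest, *Cd68* and *Lyz2*, added up to 10.2 and 9.87 rpkm in +/+, 2.06 and 16.8 in flox/flox and 2.22 and 2.41 in R270H/R270H libraries. The 8 fibroblast markers added up to 0 above the floor in both +/+ libraries and in flox/flox replicate 1, 17.6 rpkm in flox/flox replicate 2 and 1.53 and 1.59 in R270H/R270H libraries, and the 5 endothelial markers to 12.9 and 13.3 rpkm in +/+, 0 and 24.7 in flox/flox and 2.20 and 1.13 in R270H/R270H libraries. Of these markers, Col1a2, Col3a1, Lum, Pecam1, Kdr and Tie1 were at the floor throughout. *Cxcl1*, *Cxcl2*, *Cxcl10*, *Cxcl16*, *Ccl20* and *Tnf* were highest in flox/flox replicate 1, and *Cxcl5* was above the floor in flox/flox replicate 2 but not in replicate 1. The part of other cells in the values of either replicate was not tested. The 653 tested genes of chromosome 5, which carries *Cxcl1*, *Cxcl2*, *Cxcl5* and *Cxcl10*, had a median deviation of 0.22 on the log2 scale in flox/flox replicate 1, beside -0.05 for genes on other chromosomes, and between -0.10 and -0.01 in the other libraries. Its part in the values of these 4 genes was not tested.

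*Cxcl5* lies in a cluster of chemokine genes, and the genes around it are given for their position alone. Within 500 kb of *Cxcl1*, *Cxcl2* or *Cxcl5* lie 20 listed genes. Of these, 8 were at the floor in every library, including the chemokine genes *Ppbp*, *Pf4*, *Cxcl3* and *Cxcl15* between *Cxcl5* and *Cxcl1*. Of the 7 tested that are not members, 3 were called higher and 1 lower in R270H/R270H than in +/+ organoids, 3 lower in flox/flox than in +/+, and 3 higher and 1 lower in R270H/R270H than in flox/flox, where 12.2%, 11.3% and 24.6% of all genes tested were called. The 3 higher ones lie side by side, 298.4, 268.6 and 240.3 kb before *Cxcl5*, and encode the related plasma proteins albumin (*Alb*), α-fetoprotein (*Afp*) and afamin (*Afm*). *Afp* was at the floor in all +/+ and flox/flox libraries and at 8.42 and 7.73 rpkm in the R270H/R270H libraries. Like *Cxcl5*, it passed the filter only through that genotype, so its calls are not given as support. *Afm* was at 5.53 and 6.78 rpkm in +/+, at the floor in flox/flox and at 14.4 and 12.4 rpkm in R270H/R270H libraries, at 1.01 from +/+ (adjusted p=0.0189) and 2.84 from flox/flox (adjusted p=0.00184). *Rassf6*, between *Afm* and *Cxcl5*, was not called in any comparison. On the other side of *Cxcl2*, *Areg*, a growth factor of the EGF family, was at 57.3 and 60.1 rpkm in +/+, 29.3 and 30.9 in flox/flox and 9.33 and 10.4 in R270H/R270H libraries, lower than in +/+ with log2 differences of -2.46 in R270H/R270H (adjusted p=0.00303) and -0.94 in flox/flox organoids (adjusted p=0.0132). Around *Cxcl10*, 9 other genes were tested and 0 were called in any comparison by limma, with an unadjusted p under 0.05 for 3 of them between R270H/R270H and +/+, 3 between flox/flox and +/+ and 1 between R270H/R270H and flox/flox organoids.

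**Figure D5:**
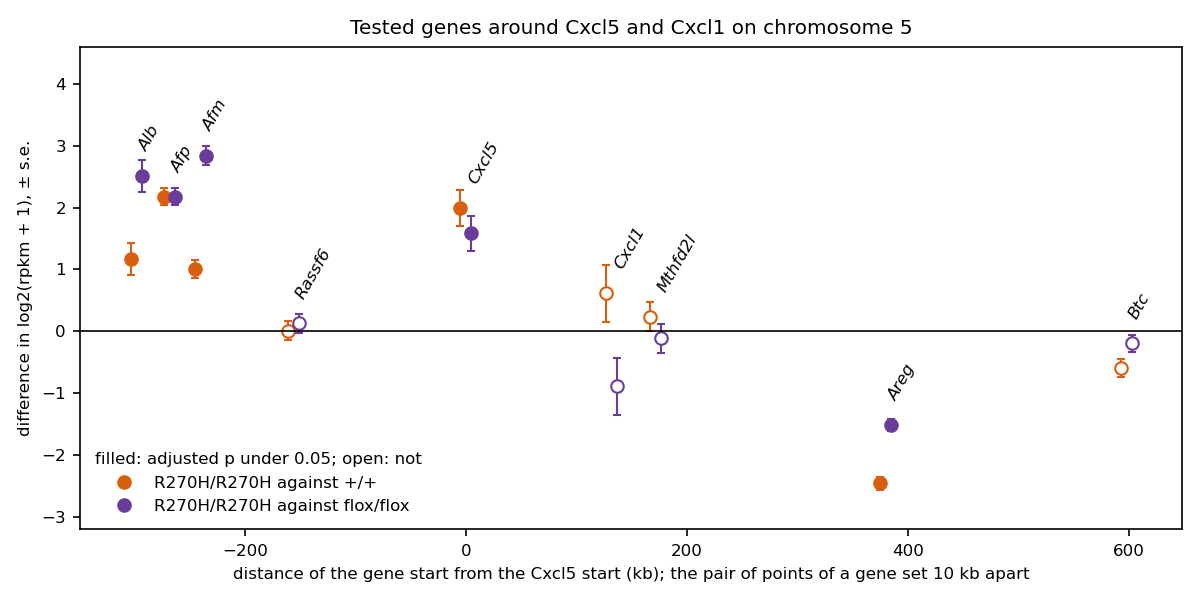
Difference in log2(rpkm+1) with s.e. bars (y axis) of the tested genes around *Cxcl5* and *Cxcl1* by the distance of their start from that of *Cxcl5* in kb (x axis), between R270H/R270H and +/+ organoids (orange) and between R270H/R270H and flox/flox organoids (purple), with filled points for an adjusted p under 0.05. *Alb*, *Afp*, *Afm* and *Cxcl5* lie above 0 with filled points, *Rassf6* lies near 0 and *Areg* below it.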

How the data were processed

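Poly(A) RNA of 6 organoid cultures was sequenced in stranded Illumina libraries. Reads were aligned to mm10 by the authors, who used StrandNGS to obtain RPKM values, deposited for 36172 genes. Its version, gene annotation and read filters are not given in the sources used here. No deposited value is below 1, so a ratio to a genotype at this floor is a lower bound. Groups came from the sample titles.

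The filter kept 10042 genes that reached 4 rpkm in any library, and these were fitted as log2(rpkm+1) with lmFit and eBayes (trend=TRUE) of limma 3.58.1 in R 4.3.3, over all 6 libraries, without a block, two-sided, with Benjamini-Hochberg adjustment over these genes. Fold differences are ratios of mean rpkm. Log2 differences include the pseudocount of 1 rpkm and understate the change of low genes. Other steps used pandas 2.3.3 and numpy 2.4.6 in Python 3.11.15, and figures were drawn with matplotlib 3.10.9. The code was tested on simulated data.

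The members and gene lists were chosen with earlier results of these data known. The text names the members, their receptors, at most 4 called genes a list and comparison, the genes within 500 kb of the members on chromosome 5, and markers. *Traf5* is listed in 2 entries, and the higher was used. Positions and promoter windows come from RefSeq on GRCm38.p6, and transcript lengths and the 36-base stretches shared between transcripts from GENCODE M21. Motifs were searched on both strands in the 250 bases before the start site. Depth was estimated from genes of 230 nt or less, whose values rise in steps of 1 read. The fit to whole reads was incomplete, with a mean cosine of 0.562 to 0.747 where a full fit gives 1. In flox/flox replicate 1 only 7 such genes were found and no estimate was used.

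The alternatives were 2 other filters (above the floor in 1 library, or 4 rpkm in both libraries of a genotype), pseudocounts of 0.1 and 0, median-of-ratios and upper-quartile scaling, no trend, a weight for each genotype, only the 2 genotypes compared, a block on the replicate number, and each library left out in turn. The numbers name mice of different genotypes that share nothing else in the labels.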

Additional observations from a re-analysis of the deposited data

How the results depend on the processing

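No log2 difference of a member changed sign under any alternative. The 2 other filters, both pseudocounts, both scalings and no trend left the members called in each comparison as they were, except that *Ccl20* was tested and called in both comparisons with flox/flox under the lower filter, for 4 of 9 members called against +/+ and 5 of 9 against R270H/R270H. The calls depended on how the uneven spread was treated. With a weight for each genotype, 6 members were called between R270H/R270H and +/+ in place of 2, 1 between flox/flox and +/+ in place of 3, and 2 between R270H/R270H and flox/flox in place of 4. With only the 2 genotypes compared in the fit, these were 4, 0 and 1. Under the weights, *Cxcl16* was the member called between flox/flox and +/+, and *Cxcl5* and *Cxcl16* those between R270H/R270H and flox/flox. With only the 2 genotypes, *Cxcl16* was the member called between R270H/R270H and flox/flox. The same settings called 5987, 150 and 534 genes (weights) and 5721, 47 and 378 genes (2 genotypes) over all genes, in place of 1227, 1133 and 2469, and the lower filter called 1907, 1469 and 3056. Leaving out each library in turn gave 0 to 5, 0 to 6 and 0 to 6 members called and 0 to 5746, 8 to 6891 and 165 to 7241 genes. The low values came from leaving out a +/+ or R270H/R270H library. This left 1 library of a steady genotype beside both of the uneven flox/flox genotype, and the lone library was assumed to vary like the others. The high values came from leaving out a flox/flox library, so that the spread came from the steadier genotypes alone. A lone flox/flox library was given that spread, so calls against it are not given as support. Without flox/flox replicate 1, *Cxcl1* and *Cxcl10* did not reach the filter. Deviations of same-numbered libraries correlated at 0.12 (+/+ and flox/flox), -0.29 (+/+ and R270H/R270H) and -0.20 (flox/flox and R270H/R270H), so the numbers were not taken to pair samples. With the replicate block, 2, 2 and 3 members and 550, 280 and 1156 genes were called, and *Cx3cl1* against +/+ (adjusted p=0.0696) and *Ccl25* against flox/flox (adjusted p=0.0769) were lost. With the R270H/R270H numbers exchanged in the block, an alternative added after the data had been seen, 2, 3 and 3 members and 941, 873 and 2276 genes were called. The floor of the deposited table, which stands for 42.1 or more reads of *Cxcl1* in the 5 libraries with a depth estimate, limits what can be said under 1 rpkm, where *Ccl28*, and in +/+ organoids *Cxcl1*, *Cxcl2*, *Cxcl5* and *Cxcl10*, have no value.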

Other observations

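Of the 29 chemokine ligands outside the 10 genes, 6 were above the floor in at least 1 library without reaching 4 rpkm, and they are named after their values were seen. *Cxcl14*, a chemokine made by epithelia, was at the floor in all +/+ and flox/flox libraries and at 3.20 and 2.15 rpkm in the R270H/R270H libraries. It is on the same side as *Cxcl5*, with both R270H/R270H libraries above the other 4, and was too low to be tested. *Ccl5* and *Ccl2*, which attract T cells and monocytes, were above the floor in flox/flox replicate 1 at 2.52 and 2.22 rpkm, the library in which *Cxcl10* was at 12.3 rpkm, and at 1.07 and 1 rpkm in flox/flox replicate 2. *Cxcl17* and *Ccl6* were at 2.42 and 1.63 rpkm in flox/flox replicate 2 and at or near the floor in the other libraries, and *Ccl9* did not exceed 1.21 rpkm in any library.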
